A study of Mus musculus with 4 samples.

Results

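The genes Obsl1, Speg, Myom1, Myom2, Nebl and Alpk3 encode scaffold and kinase proteins of the sarcomere, the contractile unit of heart muscle. They held 28 of 21179 N6-methyladenosine (m6A) peaks in knockout hearts and 24 of 20766 in control hearts. The genes were chosen from those with m6A peaks in either list, by gene symbol, and with earlier results of these data known, so their having peaks is not a result. All 6 had a peak in both lists, as did 9456 of the 12182 genes with a peak in at least 1 list. The working name of the set refers to the M-band, but the Nebl protein belongs to the Z-disc, so the set is called the 6 sarcomere genes here.

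The knockout group was hearts of Wtap-CKO mice and the control group hearts of Wtapflox/flox mice, both at an age of 4 days. WTAP is a regulatory subunit of the complex that writes m6A on messenger RNA, and the sources used here do not give the Cre driver of the knockout. RNA was pooled from 8 knockout and 7 control mice, broken into pieces of about 100 nt and pulled down with an anti-m6A antibody (IP), with unselected RNA as input. Each genotype had 1 IP and 1 input library, so no difference has a replicate check and no test between genotypes was possible. Per gene, the files give m6A peaks (stretches of exonic sequence with more IP than input reads) and no RNA level. In pooled whole hearts, fewer cells of a type and less RNA per cell cannot be told apart.

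Striated muscle ties its thick filaments together at the M-band, in the middle of the sarcomere, and anchors its thin filaments at the Z-disc. Myomesins, encoded by Myom1 and Myom2, bridge myosin filaments at the M-band and bind titin. The OBSL1 protein, a cytoskeletal adaptor encoded by Obsl1, links myomesin and titin there. SPEG is a muscle kinase that acts at the junctions where calcium is released, and ALPK3 is an alpha-kinase family protein of the M-band and the nuclear envelope. Nebulette, encoded by Nebl, is the heart member of the nebulin family and binds actin at the Z-disc. m6A is written co-transcriptionally and affects splicing, translation and decay of messenger RNA.

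The targeted gene, Wtap, had 4 knockout and 3 control peaks. A peak is no RNA level and does not check the deletion. The peaks of heart muscle cells were present as labelled: 10 of 10 cardiomyocyte markers had peaks in both lists, and 0 of 6 skeletal muscle markers (Myh1, Myh2, Myh4, Tnnt3, Actn3 and Mybpc1) had any. Some markers of other cells had more knockout than control peaks. Fibroblast markers had 17 knockout and 10 control peaks, endothelial markers 11 and 8, and smooth muscle and pericyte markers 13 and 10, with Dcn and Acta2 in the knockout list only. Cardiomyocyte markers had 29 knockout and 34 control peaks. Among these, Ryr2 held 2 knockout and 6 control peaks and Mybpc3 held 4 and 4, and the other markers are not given singly here. Immune markers had 2 knockout and 3 control peaks, with none for Ptprc, Cd68 and Adgre1, and erythroid markers had 1 and 1, with none for Hba-a1 and Alas2. The part of cell make-up and of library depth, which is unknown, in the results that follow was not tested.

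Most m6A peaks of the 6 genes lay at the same places in both genotypes. Of the knockout peaks, 24 of 28 had a control counterpart, that is, a control peak with which they had 1 or more exonic bases of the same strand in common, and 4 (14.3%) had none, against 24.5% of all knockout peaks. Of the control peaks, 21 of 24 had a knockout counterpart and 3 (12.5%) had none, against 23.9% of all control peaks. The genes were picked with these lists in view, so the shares stand as a description. All 4 knockout peaks without a counterpart lay in Obsl1 and Speg, and all 3 control peaks without a counterpart lay in Myom2 and Alpk3. Obsl1 and Speg together had 20 knockout and 13 control peaks, while the other 4 genes had 8 knockout and 11 control peaks. No peak of the 6 genes overlapped a peak of another gene on either strand.

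**Figure D1:**
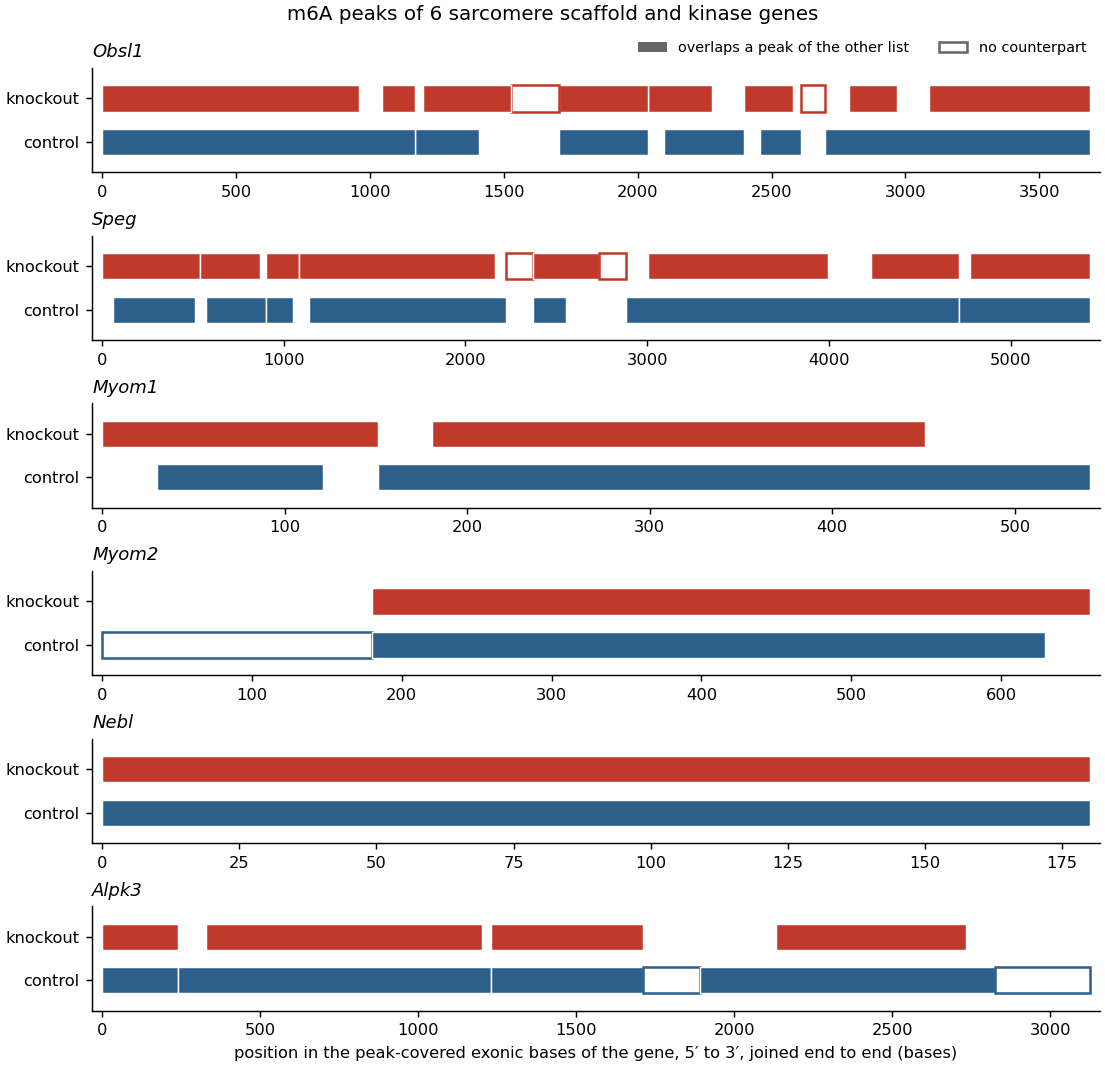
Peaks of each gene in the knockout list (upper bars, red) and the control list (lower bars, blue), along the exonic bases that peaks of either list cover, joined end to end from 5′ to 3′, so that introns are left out. Filled bars overlap a peak of the other list and open bars do not; the open bars are 2 in Obsl1 and 2 in Speg (knockout), and 1 in Myom2 and 2 in Alpk3 (control).

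A shared site was not always a single peak in each list. The 52 peaks of the 6 genes formed 21 groups with peaks of both lists. In 18 of these groups 1 knockout peak met 1 control peak, and in 3 groups (14.3%) a pair of knockout peaks met 1 longer control peak, against 4.44% of 14791 such groups over all genes. The 3 groups lay in Obsl1, which had 2, and Speg, which had 1. Their control peaks had 1168 and 988 bases in Obsl1 and 1830 in Speg, against a median of 270 over all control peaks. The 4.44% was taken over groups of any peak length. No group of the 6 genes had several control peaks on 1 knockout peak, a form that made up 3.22% of groups over all genes. In 4 of the 21 groups the knockout and control peaks had the same exonic blocks, against 8.53% of groups over all genes, and these lay in Obsl1, Nebl and Alpk3.

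Obsl1 (ENSMUSG00000026211) had 10 knockout and 6 control peaks on the minus strand of chromosome 1, between 75456014 and 75483096 in mouse build GRCm39, to which all positions refer. All 6 control peaks had a knockout counterpart. Fold enrichment, the ratio of IP over input, is the authors' own value for a peak, as are p and q. It describes a peak within its own list and gives no change between genotypes. The knockout folds ran between 1.76 and 9.18 with a median of 2.72, and the control folds between 1.60 and 12.2 with a median of 6.18. Of these peaks, 4 of 10 knockout and 5 of 6 control peaks were strong, a word used here for a q (the false discovery rate of the caller) at or under 1e-10.

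At the 5′ end of these peaks, the knockout list had a peak of 958 bases at 75482139 to 75483096 (fold 9.18, log10 q -82.0) and one of 121 bases at 75481929 to 75482049 (fold 1.76, log10 q -3.19). The control list had 1 peak of 1168 bases over both, at 75481929 to 75483096 (fold 12.2, log10 q -101). The knockout peaks together covered 1079 of its bases. Further 3′, the knockout peak at 75480009 to 75480354 (2 blocks, fold 4.84, log10 q -19.2) overlapped the control peak at 75480129 to 75480384 (2 blocks, fold 3.42, log10 q -14.7). The peak at 75468723 to 75469104, of 330 bases in 2 blocks, was the same in both lists and had a fold of 6.33 (log10 q -65.7) in the knockout and 8.88 (log10 q -91.5) in the control.

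The next knockout peak, at 75468109 to 75468348 (fold 2.50, log10 q -7.60), shared 180 bases with the control peak at 75467989 to 75468288 (fold 3.48, log10 q -23.2). Another knockout peak, at 75467570 to 75467750 (fold 1.86, log10 q -6.07), shared 121 bases with the control peak at 75467540 to 75467690 (fold 1.60, log10 q -4.85). The folds of 1.86 and 1.60 were both among the lowest of their lists: 2.71% of knockout peaks and 1.03% of control peaks had smaller ones. The 3′-most control peak, at 75456014 to 75464435, had 988 bases in 4 blocks (fold 11.2, log10 q -40.2). It met a pair of knockout peaks, at 75456014 to 75463745 (599 bases in 3 blocks, fold 5.49, log10 q -50.5) and at 75463865 to 75464345 (180 bases in 2 blocks, fold 2.50, log10 q -2.02). This last q was the closest to the authors' limit among the knockout peaks of the 6 genes.

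The knockout peaks of Obsl1 without a control counterpart were both weak. One lay at 75473593 to 75473772 (fold 2.90, log10 q -3.63) and was 4488 bases from the next peak of either list. The other, of 91 bases, lay at 75466278 to 75466368 (fold 2.55, log10 q -3.27) and was 1171 bases from the next control peak. Although the knockout list had 4 more peaks than the control list, it covered nearly as many exonic bases, 3210 in the knockout and 3177 in the control, of which 2699 were common.

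Speg (ENSMUSG00000026207) lies on the plus strand of chromosome 1, and 47259 bases separated its peaks from those of Obsl1. It had 10 knockout and 7 control peaks between 75352001 and 75408754, and all 7 control peaks had a knockout counterpart. The knockout folds ran between 3.0 and 10.9 (median 6.21) and the control folds between 2.51 and 20.9 (median 8.10). In both lists the 3′-most Speg peak was the strongest. It lay at 75408095 to 75408754 in the knockout (660 bases, fold 8.63, log10 p -400) and at 75408035 to 75408754 in the control (720 bases, fold 8.10, log10 p -334), with log10 q listed as minus infinity in both. Among all peaks of its list, 99.3% were weaker than the knockout peak and 99.1% weaker than the control peak by p.

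The 5′ part of Speg carried 4 pairs of peaks. The first peak lay at 75352001 to 75359783 in the knockout (541 bases in 3 blocks, fold 10.9, log10 q -12.5) and at 75352061 to 75358791 in the control (451 bases in 2 blocks, fold 20.9, log10 q -9.75). The control fold was the highest of any peak of the 6 genes, although its q was not strong. The second lay at 75361452 to 75361782 in the knockout (fold 9.16, log10 q -23.3) and at 75361482 to 75362159 in the control (fold 6.11, log10 q -29.1). The third lay at 75362249 to 75364550 in the knockout (fold 7.50, log10 q -5.96) and at 75362249 to 75364520 in the control (fold 3.26, log10 q -4.66). The fourth was long in both lists, with 1080 bases at 75364670 to 75367623 in the knockout (fold 9.13, log10 q -47.3) and 1081 bases at 75364729 to 75367683 in the control (fold 14.6, log10 q -90.1).

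Further 3′ lay the knockout peak at 75380829 to 75381188 (360 bases, fold 3.0, log10 q -8.28). It held the control peak at 75380829 to 75381008 (180 bases, fold 2.51, log10 q -5.85) whole. The knockout peaks without a counterpart flanked it, at 75376821 to 75377300 (151 bases in 3 blocks, fold 4.92, log10 q -2.44) and at 75391684 to 75391985 (151 bases in 2 blocks, fold 3.54, log10 q -2.92). They lay 3528 and 6263 bases from the next control peak, and neither passed a q of 0.001. Towards the 3′ end, the control peak at 75398249 to 75400078 was the longest single block of the 6 genes, with 1830 bases (fold 8.21, log10 q -121). The knockout list had a pair of peaks inside it, at 75398369 to 75399358 (990 bases, fold 4.50, log10 q -15.7) and at 75399598 to 75400078 (481 bases, fold 4.27, log10 q -19.1), which covered 1471 of its bases.

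Obsl1 had 4 and Speg 3 more knockout than control peaks, and 0.962% of 9456 genes with peaks in both lists had at least 3 more. The limit of 3 was set after these counts were seen. Genes with peaks in both lists need at least 4 knockout peaks to reach it, and 1110 genes had that many. Most of the 9456 genes could therefore not reach it. The share among genes with as many knockout peaks as Obsl1 and Speg is not given here. In both genes the excess was made up of weak peaks without a counterpart and of sites where a pair of knockout peaks met a longer control peak. At 10 peaks each, both were among 17 genes with as many or more in the knockout list, while 233 genes had at least the 6 control peaks of Obsl1 and 128 at least the 7 of Speg. Transcript length and level did not enter these counts.

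Myom1 (ENSMUSG00000024049), which encodes myomesin 1, had 2 peaks in each list on the plus strand of chromosome 17, and each overlapped one of the other list. The strongest peak was the 3′-most one in both lists. It lay at 71433192 to 71433461 in the knockout (270 bases, fold 2.03, log10 p -106, log10 q -104). In the control it lay at 71433162 to 71433551 (390 bases, fold 3.56, log10 p -494, log10 q listed as minus infinity). The log10 p of this control peak was the most extreme of the 6 genes, with 99.5% of the control list weaker, while its fold exceeded that of 21.1% of the list. At the knockout peak, 95.2% of the list were weaker by p and 4.34% had a smaller fold. The 5′ peak lay at 71325900 to 71329848 in the knockout (151 bases in 3 blocks, fold 4.74, log10 q -11.6) and held the control peak at 71326532 to 71326622 (91 bases, fold 1.88, log10 q -2.10) whole. In the knockout list the 5′ peak was strong, and in the control list it was the weakest of the 24 control peaks by q.

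Myom2 (ENSMUSG00000031461), which encodes myomesin 2, had 1 knockout and 2 control peaks on the plus strand of chromosome 8. The shared peak began at the same base, with 479 bases at 15183033 to 15183511 in the knockout and 449 bases at 15183033 to 15183481 in the control. Its log10 q was -137 in the knockout and -138 in the control, and its fold was 13.1 and 3.81. The knockout fold was the highest of any knockout peak of the 6 genes, above 73.8% of the knockout list, while the control fold was above 23.6% of the control list. The control list had a further peak 149 bases upstream, at 15182704 to 15182883, with no knockout counterpart. Its fold of 1.21 was one of the lowest of the whole control list (0.0144% of peaks had a smaller fold), and its log10 q was -4.66.

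Nebl (ENSMUSG00000053702) had 1 peak in each list, and the peaks had the same 180 bases, at 17465284 to 17465463 on the minus strand of chromosome 2. The fold was 3.13 in the knockout (log10 q -3.97) and 4.05 in the control (log10 q -8.21). Neither peak was strong, and both folds were in the lower part of their lists, above 16.6% of knockout and 26.2% of control peaks. Nebl was the only member whose covered bases were the same in both lists.

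Alpk3 (ENSMUSG00000038763), whose loss causes cardiomyopathy in humans, had 4 knockout and 6 control peaks on the plus strand of chromosome 7, between 80707348 and 80754251. All 4 knockout peaks were strong and had a control counterpart. The first peak, of 241 bases in 3 blocks at 80707348 to 80717655, was the same in both lists (fold 11.4 and log10 q -42.5 in the knockout, 6.02 and -21.0 in the control). The second lay at 80727411 to 80728281 in the knockout (871 bases, fold 7.62, log10 q -50.2) and at 80727322 to 80728311 in the control (990 bases, fold 10.6, log10 q -62.9). The third, of 481 bases at 80741953 to 80742433, was again the same and was the strongest peak of the gene in both lists (fold 6.73 and log10 q -166 in the knockout, 8.62 and -208 in the control). The last shared site was shorter in the knockout, with 601 bases at 80743272 to 80743872 (fold 7.79, log10 q -99.6), than in the control, with 930 bases in 2 blocks at 80743032 to 80744607 (fold 9.02, log10 q -104).

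The control list had a pair of Alpk3 peaks with no counterpart. The one at 80742553 to 80742733 was weak (fold 2.10, log10 q -6.54) and lay 119 bases from the strongest peak. The other, at 80753951 to 80754251, was the 3′-most peak of the gene (301 bases, fold 2.98, log10 q -38.5) and lay 10078 bases from the next knockout peak. It was the only strong peak without a counterpart among the 6 genes: 1 of 16 strong control peaks, against 8.72% of strong control peaks over all genes, and 0 of 17 strong knockout peaks, against 4.04% over all genes. At least 2 more control than knockout peaks were found in 4.77% of genes with peaks in both lists, a limit set after the Alpk3 counts were seen. Genes with 1 or 2 control peaks could not reach it. Alpk3 was among 233 genes with at least 6 control peaks, and the share among those is not given here.

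**Figure D2:**
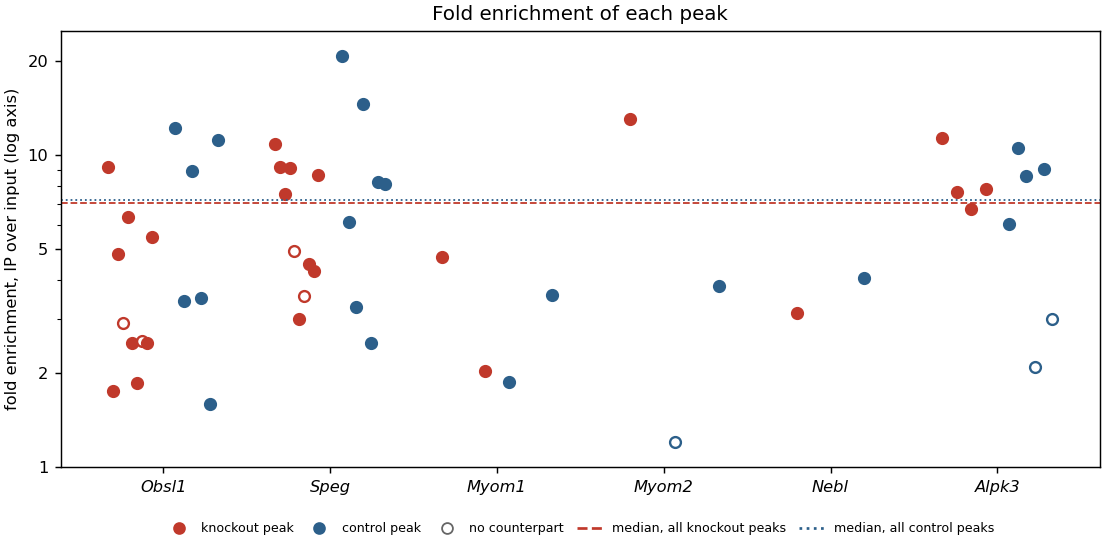
Fold enrichment of IP over input (log axis) of each peak, by gene, with knockout peaks (red) left of control peaks (blue), each set in 5′ to 3′ order; open circles have no counterpart and lines are the medians of the whole lists, 7.03 in the knockout and 7.22 in the control. The 7 peaks without a counterpart had folds between 1.21 and 4.92, all below those medians.

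**Figure D3:**
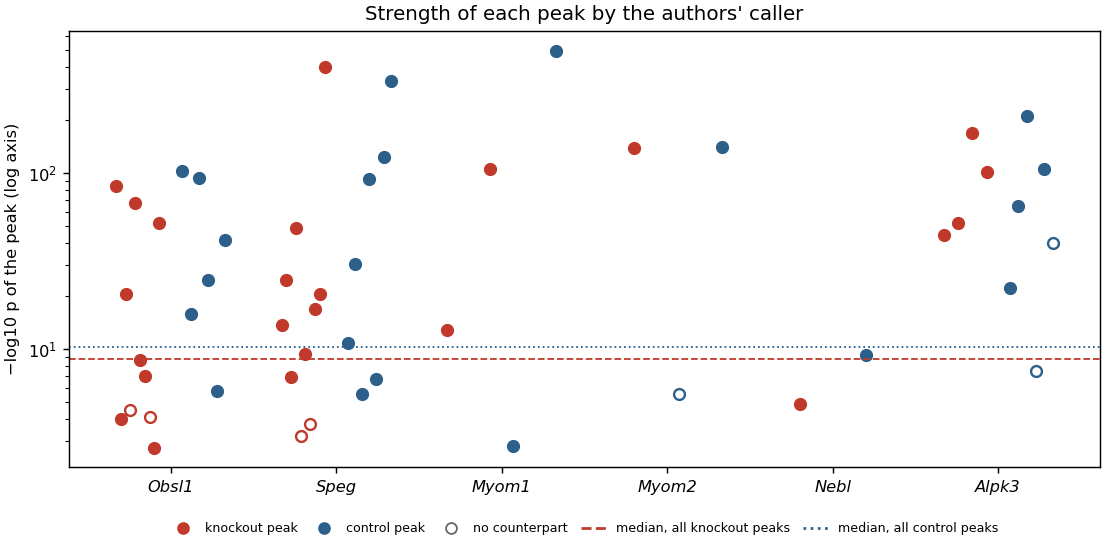
Size of the log10 p that the authors' caller gave to each peak (log axis), by gene, in the same order and colours, with the medians of the whole lists as lines. Open circles, the peaks without a counterpart, lie low except for the control peak of Alpk3 at log10 p -40.0.

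Pooled over the 6 genes, the median q was smaller and the median fold lower than in the whole lists, but single genes differed. The median log10 q was -17.4 over the 28 knockout peaks, against -7.69 over the whole list, and -33.8 over the 24 control peaks, against -9.17. The median fold was 4.88 in the knockout and 5.04 in the control, against 7.03 and 7.22 over the whole lists. The median log10 q was nearer to 0 than that of the list for Obsl1 in the knockout (-6.83) and for Nebl in the knockout (-3.97) and the control (-8.21). The median fold was above that of the list for Alpk3 in the knockout (7.71) and the control (7.32), for Myom2 in the knockout (13.1) and for Speg in the control (8.10). Strong peaks made up 17 of 28 knockout peaks (60.7%) and 16 of 24 control peaks (66.7%), and 43.2% and 48.0% of the whole lists. The lists hold no transcript level to set beside these values. More than 1 exonic block was spanned by 11 of 28 knockout and 9 of 24 control peaks, that is 39.3% and 37.5%, against 23.3% and 21.2% of the whole lists.

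The peak of smallest p was compared between the lists for genes with several peaks. Of the 4 members with at least 2 peaks in each list (Obsl1, Speg, Myom1 and Alpk3), the peaks of smallest p overlapped between the lists in 4, against 74.6% of 4252 such genes. Among members with at least 2 peaks, that peak was the 3′-most one in 2 of 4 in the knockout (Speg and Myom1), against 48.6% over all genes. It was the 3′-most one in 3 of 5 in the control (Speg, Myom1 and Myom2), against 51.8%. In Obsl1 it was the 5′-most, and in Alpk3 it lay between other peaks, in both lists. Whether these places were coding exons or untranslated regions, and which bases lay under them, was not analysed here.

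Knockout peaks covered 11410 exonic bases of the 6 genes and control peaks 12335, while over all genes it was 6.90 Mb in the knockout and 7.31 Mb in the control. Alpk3 had 2194 covered bases in the knockout, all of which were covered in the control too, against 3124 in the control. Speg had 4926 covered bases in the knockout and 4744 in the control, with 4235 in common. For Myom1 it was 421 in the knockout and 481 in the control, and for Myom2 479 and 629.

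**Figure D4:**
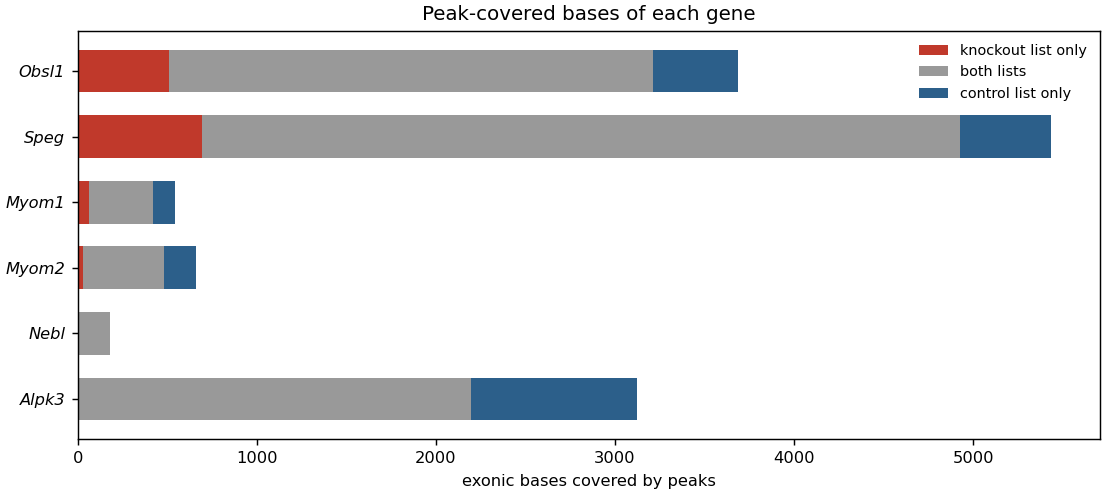
Exonic bases of each gene covered by peaks of the knockout list only (red), of both lists (grey) and of the control list only (blue). In all 6 genes most covered bases were common to both lists; 930 bases of Alpk3 were covered in the control list only, and 0 in the knockout list only.

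Companion genes (28) that encode partners or relatives of these proteins were counted in the same way. They had 69 knockout peaks, of which 6 had no counterpart, against 24.5% of all knockout peaks. Of their 99 control peaks, 40 had none, against 23.9% of all control peaks. Of their strong peaks, 1 of 47 knockout and 20 of 71 control peaks had no counterpart, against 4.04% and 8.72% over all genes. Ttn, which encodes titin, held 17 of the 40, with 4 knockout and 21 control peaks, and without Ttn 23 of 78 control peaks had no counterpart. Of the 28 genes, 25 had peaks in both lists, Mtm1 in the control list only, and Ckm and Neb in neither (these 3 were named after their values were seen). No test of the difference from the 6 genes was made.

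Of the other companions, Myom3, the third myomesin gene, had 1 knockout peak (fold 15.9, log10 q -3.15) that overlapped the first of 2 control peaks (fold 7.22, log10 q -2.29). Its second control peak, at 135542427 to 135542785 on chromosome 4, had a fold of 30.5 (log10 q -7.46) and no counterpart. Cmya5, which encodes myospryn, a large muscle protein, had 3 knockout and 10 control peaks, and 7 of the 10 had no counterpart. Alpk2, the relative of Alpk3, had 5 peaks in each list, of which 2 control peaks had no counterpart. Xirp2 had 6 knockout and 7 control peaks, of which 1 and 3 had none.

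Ryr2, the gene of the calcium release channel, had 2 knockout and 6 control peaks, and 4 of the 6 had no counterpart. Jph2, the gene of the junctional protein junctophilin 2, which SPEG phosphorylates, had 4 knockout and 3 control peaks, all with a counterpart. Cul7, whose product forms a complex with the OBSL1 protein, had 3 knockout and 4 control peaks, of which 1 and 2 had none. Ank1, the gene of an ankyrin, had 3 and 4 peaks, of which 1 control peak had none. Mybpc3, which encodes cardiac myosin binding protein C, had 4 peaks in each list, all with a counterpart. More knockout than control peaks were found in 4 of the 28 companions, namely Jph2, Mylk3, Nrap and Trim63, of which the last 3 were named after their values were seen. Mylk3, a heart myosin light chain kinase gene, had 4 knockout and 3 control peaks, all with a counterpart. Nrap, a gene of an actin-binding muscle protein, also had 4 and 3, of which 1 knockout peak had none. Trim63, the gene of the ubiquitin ligase MuRF1, had 3 and 2, of which 1 knockout peak had none.

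**Figure D5:**
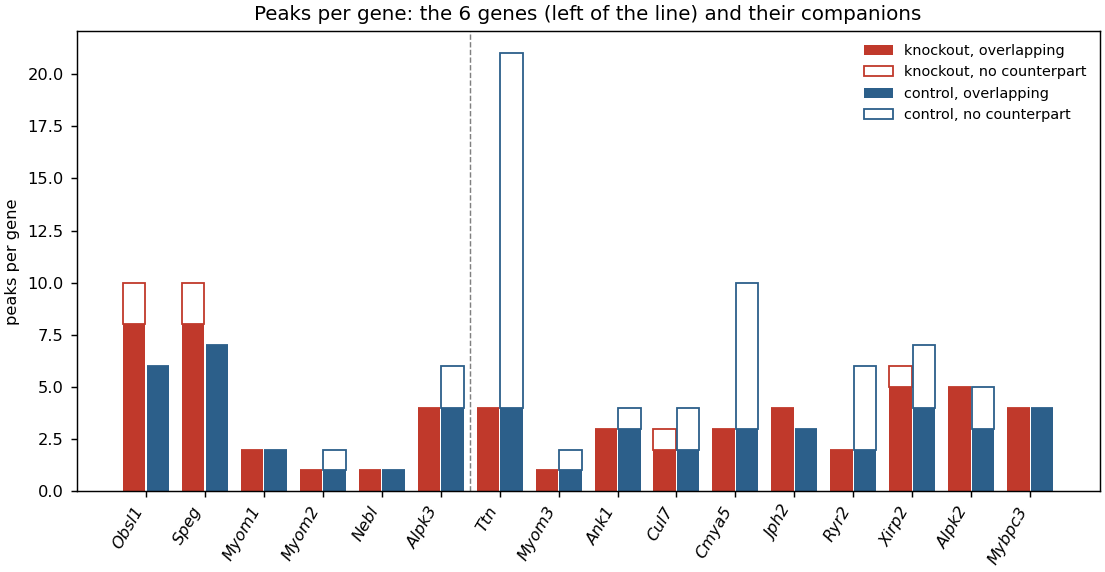
Number of peaks per gene in the knockout list (red) and the control list (blue), for the 6 sarcomere genes left of the dashed line and 10 companion genes right of it; open parts of a bar are peaks without a counterpart. Obsl1, Speg and Jph2 have taller red bars. Taller blue bars with open parts are those of Myom2, Alpk3, Myom3, Ank1, Cul7, Xirp2, Ttn, Cmya5 and Ryr2, by most in the last named Ttn, Cmya5 and Ryr2.

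Likeness between genes was measured over the 2 lists, as the same numbers of knockout and control peaks with and without a counterpart, and then as the distance between median log2 folds. No other gene had the counts of Obsl1 or of Speg. The counts of Alpk3 were found in 10 other genes, of which Pou6f1 was nearest (median fold 7.78 in the knockout and 6.92 in the control, distance 0.0591), followed by Prrx1 (0.610) and Zfp518a (0.646). Those of Myom2 were found in 567 others, nearest of them Usp28 (0.365), Nhp2 (0.378) and Med8 (0.420). Those of Myom1 were found in 1196 others, with Map4k2 (0.0436), Acadvl (0.0516) and Maf1 (0.0641) nearest. Those of Nebl were found in 2833 others, with Mir8114 (0.0400), Washc2 (0.0503) and Slc66a1 (0.0536) nearest.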

How the data were processed

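RNA of 8 knockout and 7 control hearts was pooled per genotype, and 4 libraries were made, 1 IP and 1 input each. Groups follow the labels for genotype and antibody. Per the series' design text, the authors' caller was exomePeak 2.16.0, run per genotype with the input as background and a q limit of 0.05; the submitters' processing notes name build GRCm39 and the tools HOMER 4.9.1, BWA 0.7.12 and fastp 0.19.11 without roles. The authors deposited 1 peak list per genotype. The deposited p-value, its log10 and the log10 q (read as a score, since both reach minus infinity) are the authors' values per peak. The deposited fold, on a linear scale, is the authors' IP to input ratio, and the sources used here do not say how libraries were scaled. The lists hold no counts, so depth is unknown and no interval is given for a single peak. Exact 95% binomial intervals of the members' shares without a counterpart were 4.03% to 32.7% in the knockout and 2.66% to 32.4% in the control, and cover counting error only. They treat peaks as independent, although the peaks came from 6 chosen genes and several lay in the same gene.

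Starts were taken as 0-based and are printed 1-based. With Python 3.11.15, numpy 2.4.6 and pandas 2.3.3, peaks of the lists were counterparts when they had 1 or more exonic bases of the same strand in common. Figures used matplotlib 3.10.9. The overlap step, tested on simulated data (18209 peaks), found 100% of slightly shifted and 0% of moved ones. Moved peaks were put on another sequence, and peaks that overlapped others were left out. The outcome therefore checks the code only, and not split or partly overlapping peaks. Peaks of a group are linked by overlap between lists. The members and gene lists were chosen with earlier results of these data known. The text names all 6 members, Ttn, Myom3, the 8 other companions with most peaks (ties in alphabetical order) and up to 3 genes most like each member; 1 companion and 1 erythroid marker are not reported here. The symbols of 6 members matched a RefSeq table of GRCm38.p6, whose coordinates were not used; genome sequence of GRCm39 was not used here. The alternatives tried were stricter q limits (0.01, 0.001 and 1e-10), minimum folds of 2 and 4, overlaps of 50%, overlap without strand, whole spans, equal peak numbers and merged peaks.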

Additional observations from a re-analysis of the deposited data

How the results depend on the processing

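The 28 knockout and 24 control peaks of the 6 genes, with 4 and 3 without a counterpart, stayed within 1.5 times of these counts in 28 of 34 alternative values. The other 6 were as follows. At a fold of at least 4, 18 knockout and 13 control peaks were left, and 1 control peak had no counterpart. The 5 of 18 knockout peaks without one at that fold counted as within 1.5 times of 4. The fold limit was put on both lists, so a peak could lose its counterpart when the counterpart fell below it. Among peaks at q at or under 1e-10, 0 knockout peaks and 1 control peak had no counterpart. When a counterpart had to share 50% of both peaks, 7 of 28 knockout peaks had none. Shares over all peaks at these alternatives are not given here. The 14.3% of member peaks against 24.5% of all knockout peaks stands for the rule of 1 shared base without further limits. For single genes, 180 alternative values stayed within 1.5 times and 24 did not. At q at or under 0.001 Speg had 0 knockout peaks without a counterpart, against 2 among all peaks. No paired analysis was possible because each group held 1 pooled library, and for the same reason no replicate could be left out. Depth is unknown, so a peak missing from a list does not show that the site was unmethylated.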
